A study of Mus musculus with 13 samples.

Results

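The genes described here are 34 chemokines, chemokine receptors and secreted cytokines that are counted among the products of senescent or inflamed cells, taken by gene symbol from the 55487 genes counted in primary and spontaneously immortalized fibroblasts of mouse embryos (MEFs). They comprise 9 cytokines, 8 CXC ligands, 11 CC ligands, the CX3C ligand Cx3cl1 and 5 receptors. From general knowledge, 16 were placed in a stromal class (made mainly by fibroblasts and other structural cells), 12 in a leukocyte class (made mainly by macrophages and other blood-derived cells) and 6 in a class made by both. Levels are given as CPM, gene counts divided by library size, scaled across all 13 libraries by the trimmed mean of M values (TMM), and CPM per kilobase of gene length was used wherever one gene is set against another.

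Each library is poly-A RNA of 1 MEF culture. The wild-type (WT) libraries came from primary cells of clones 3, 4 and 5 and from the immortalized line grown out of each, and the libraries labelled Prkd3-/- from primary cells of clones 13, 14 and 15 and from immortalized lines 13, 13a, 14 and 15. Prkd3 encodes a protein kinase of the protein kinase D family. Primary cells grew in 10% fetal calf serum, senescent cultures were kept in 20% until colonies grew out, and the lines were then returned to 10%. Immortalization, the spell in 20% serum and time in culture cannot be told apart. Each WT clone number stands for an embryo, each line for outgrown colonies, and lines 13 and 13a carry the same clone number.

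Chemokines are small secreted proteins that steer leukocytes along gradients, and they are grouped by the spacing of their first cysteines into CXC, CC and CX3C ligands. They act on G protein-coupled receptors on the target cell, while atypical receptors such as Ackr3 take ligand up without the usual signal. Senescent fibroblasts secrete many of them together with Il6 and growth factors, a programme known as the senescence-associated secretory phenotype and driven largely by NF-kB and C/EBP transcription factors. Fibroblasts make ligands in quantity but few chemokine receptors, which are typical of leukocytes.

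Libraries did not vary alike. Depth ranged from 35273408 to 100441756 counts per library, at which 3 counts correspond to 0.0279 to 0.0848 CPM, a floor that covers counting error only. In the WT primary libraries the 33 tested genes of the module had a median SD of 0.22 on the log2 scale (0.081 over all tested genes), and in the WT immortalized lines it was 2.04 (0.33 over all). In the Prkd3-/- libraries the corresponding medians for 31 genes were 1.14 for primary cells (0.26 over all) and 2.04 for lines (0.54 over all). Prkd3 was counted at 69.7 to 93.6 CPM in WT libraries and at 33.8 to 61.1 CPM in libraries labelled Prkd3-/-. 10 fibroblast markers summed to between 18351 and 71030 CPM, with none at 0 in any library. The 14 macrophage markers summed to 1602 to 1629 CPM in the WT primary libraries and to 63.1 to 160 CPM in the WT lines. In the Prkd3-/- primary libraries they summed to 181 CPM in clone 13, 2274 CPM in clone 14 and 436 CPM in clone 15. In the Prkd3-/- lines they summed to 381 CPM in line 13a and to 13.99 to 21.6 CPM in the other lines, with 7 of the 14 at 0 in line 13. Summed markers of neutrophils stayed at or below 0.986 CPM, those of mast cells at or below 1.02 CPM and those of T and B cells at or below 3.47 CPM. Markers of Schwann cells summed to 0.276 to 1.85 CPM over all libraries. In WT, markers of other cell types were also lower in lines than in primary cells: endothelial markers summed to 11.6 to 16.5 CPM in primary cells and 0.377 to 1.98 CPM in lines, epithelial markers to 2.37 to 2.74 and 0.180 to 0.541 CPM, and skeletal muscle markers to 22.7 to 26.0 and 0.727 to 7.21 CPM. In Prkd3-/- libraries the endothelial sum was 15.3 to 29.2 CPM in primary cells and 1.49 to 17.8 CPM in lines, the epithelial sum 1.16 to 2.66 and 0.401 to 4.32 CPM, and the muscle sum 4.38 to 27.5 and 0.110 to 0.935 CPM. In bulk RNA, fewer cells of a type and less RNA per cell cannot be told apart.

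Many members lie side by side. Within chromosome 11 (build GRCm38), Ccl2, Ccl7, Ccl11, Ccl12 and Ccl8 span 82035571 to 82116799, and Ccl5, Ccl9, Ccl6, Ccl3 and Ccl4 span 83525778 to 83664683. Chromosome 5 holds Cxcl5, Cxcl1 and Cxcl2 between 90759360 and 90905938, and Cxcl9 and Cxcl10 between 92321347 and 92348889. The receptors Ccr1 and Ccr2 lie on chromosome 9 between 123962124 and 124113557. Counting of the WT table ignored strand and gave a pair to every gene it overlapped, so reads cannot be assigned to 1 gene alone over the 18.3% of Cxcl16 exon bases shared with Zmynd15, the 11.2% of Il1a shared with Gm14023, the 5.91% of Cxcl10 shared with Art3 and the 1.73% of Cx3cr1 shared with Gm33858.

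Promoters are shown for the 3 genes with a match to an NF-kB motif and for Cxcl12. NF-kB sites are the best known control elements of this gene class. All 4 lay above the WT primary range in WT line 5, described further on. RefSeq start sites (GRCm38.p6) gave 29 promoter windows for 25 of the 34 genes, with no entry for Ccl2, Ccl4, Ccl5, Ccl7, Ccl11, Csf3, Cxcl5, Cxcl16 and Tslp. The NF-kB motif was searched as GGGA, any base, TTTCC on both strands over 250 bases before and 50 after each start site, and was present in 3 of the 29 windows and in 0.411% of all 32851 windows. The matches were in Il6 at position -44, Cxcl1 at -71 and Cxcl2 at -97, counted from the start site to the first base of the match. Il1a, Lif, Il33, Ccl6, Ccl8, Ccl20, Cx3cl1 and Ccr1 also lay above the primary range in line 5 and had windows without a match. The promoters shown were chosen by their match, so they cannot link it to the levels in line 5. Below, the 250 bases before the start site are given 5′ to 3′ on the plus strand, with the match in capitals, for Il6 (chr5:30012864-30013113), Cxcl1 (chr5:90890995-90891244) and Cxcl2 (chr5:90903649-90903898), and for Cxcl12 (chr6:117168285-117168534), which had no match.
Il6: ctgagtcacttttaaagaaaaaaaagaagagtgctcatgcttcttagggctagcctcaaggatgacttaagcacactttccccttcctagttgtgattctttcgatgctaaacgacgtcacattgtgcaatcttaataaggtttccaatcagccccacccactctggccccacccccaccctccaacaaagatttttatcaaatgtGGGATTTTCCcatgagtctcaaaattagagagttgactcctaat
Cxcl1: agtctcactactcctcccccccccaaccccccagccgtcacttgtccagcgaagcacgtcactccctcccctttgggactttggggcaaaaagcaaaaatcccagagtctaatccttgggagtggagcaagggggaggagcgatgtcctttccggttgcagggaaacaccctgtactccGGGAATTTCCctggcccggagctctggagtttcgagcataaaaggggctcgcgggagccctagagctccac
Cxcl2: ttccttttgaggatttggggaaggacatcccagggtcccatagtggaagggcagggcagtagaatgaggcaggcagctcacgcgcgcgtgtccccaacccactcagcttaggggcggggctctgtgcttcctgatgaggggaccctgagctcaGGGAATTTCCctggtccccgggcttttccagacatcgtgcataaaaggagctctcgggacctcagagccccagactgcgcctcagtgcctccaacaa
Cxcl12: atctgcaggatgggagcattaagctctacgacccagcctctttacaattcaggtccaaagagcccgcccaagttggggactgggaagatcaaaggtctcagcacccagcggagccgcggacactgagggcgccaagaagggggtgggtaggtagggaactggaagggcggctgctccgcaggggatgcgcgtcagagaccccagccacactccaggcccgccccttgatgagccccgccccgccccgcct
An AP-1 motif (TGANTCA) was in 8 of the 29 windows, against 7.81% of all windows, and an interferon response motif (GAAA, any 2 bases, GAAA) was in those of Cxcl10 and Cxcl14, against 3.44% of all. These matches are descriptions of the letters, and binding was not measured.

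Primary WT MEFs expressed mostly stromal ligands. Per kilobase, the highest levels were those of Cxcl14 (54.2 ± 4.01 CPM per kilobase, SD, n = 3), a chemokine made constitutively by many tissues, and of Cxcl12 (52.9 ± 9.40), which retains cells bearing Cxcr4. They were followed by Cxcl5, Ccl7, Ccl2, Cx3cl1, Il1rn and Cx3cr1, and 8 genes in all exceeded 20 CPM per kilobase. The lowest were Il6 (0.0507 ± 0.0270) and Il1a (0.0600 ± 0.00872), and 12 genes lay under 1 CPM per kilobase. Of the 33 pairs of neighbours in this order, the libraries of 6 did not overlap (Cxcl5 above Ccl7, Ccl2 above Cx3cl1, Cx3cr1 above Ackr3, Ackr3 above Cxcl16, Cxcl16 above Ccl9, and Ccl9 above Cxcl1), and the other neighbours did not differ beyond their spread.

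**Figure D1:**
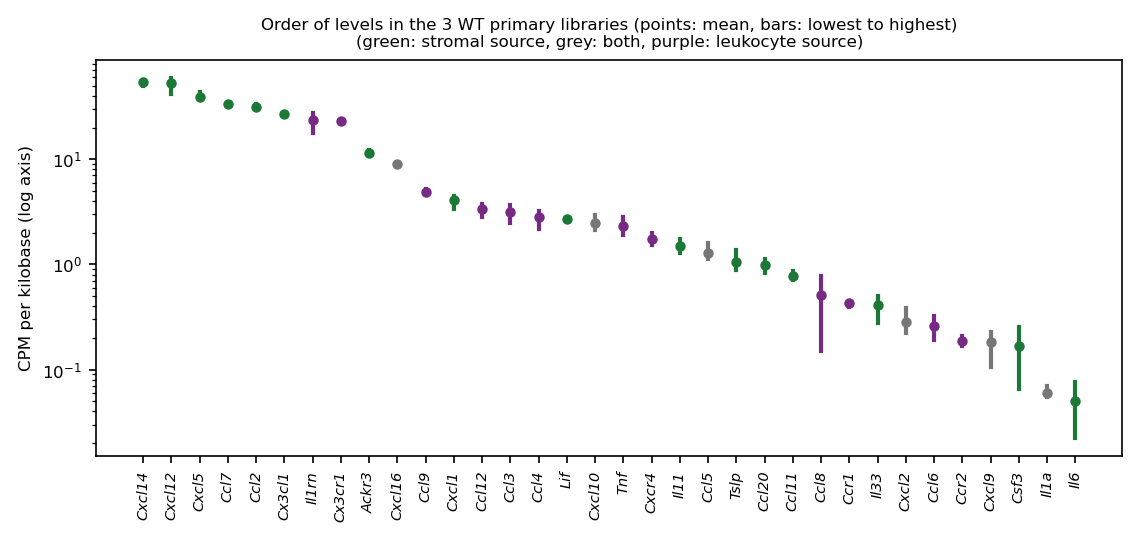
Levels of the 34 genes in the 3 WT primary libraries, in CPM per kilobase on a log axis, with points at the mean and bars from the lowest to the highest library. Cxcl14 and Cxcl12 lead at 54.2 and 52.9 CPM per kilobase, and Il6 is last at 0.0507.

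In the WT comparison, which asks what changed between primary and immortalized cells, 4 genes fell and none rose: the receptors Cx3cr1, Ccr2 and Cxcr4 and the ligand Ccl12, all of the leukocyte class. Their Log2FC were -6.63, -6.12, -3.38 and -4.66. A call required an adjusted p under 0.01 and a |Log2FC| of at least 1 in edgeR's quasi-likelihood test over 19836 genes, of which 1.82% were called, 1.76% lower and 0.0605% higher. None of the 16 stromal genes was called (median Log2FC 0.47), nor any of the 5 tested genes made by both sources (-0.71), while the leukocyte class had 4 of 12 called lower (-2.23). The 33 tested genes had a median Log2FC of -0.06, with 18 below 0, beside 0.036 for all tested genes. At an unadjusted p under 0.05 there were 10 of 33, beside 19.7% of all tested genes. In every immortalized line 11 of 33 lay below every primary library (17.4% of all tested genes) and 0 above (13.5%).

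These 4 calls depended on the libraries and on the fit. With the clone number as a block, which pairs each line with its primary culture, none of the 4 was called. That fit called 0% of all 19836 tested genes. The adjusted p-values in it were 0.0184 for Cx3cr1, 0.0620 for Ccl12, 0.0670 for Ccr2 and 0.0714 for Cxcr4. Leaving out primary library 3, 4 or 5 left only Cx3cr1 called, beside 0.237%, 0.247% and 0.325% of all tested genes. Leaving out line 4 left Cx3cr1 and Ccr2 called lower (1.61% of all tested genes) and Lif higher (0.162%). Leaving out line 3 kept all 4 (2.25% of all tested genes lower) and added Cxcl12 as higher (0.398%). Leaving out line 5 gave 9 genes called lower (Tnf, Cxcl5, Cxcl16, Ccl3, Ccl4, Ccl12, Cx3cr1, Ccr2 and Cxcr4) beside 3.48% of all tested genes, and moved the median of the 33 to -2.61. DESeq2 called 6 of 27: Cx3cr1, Ccr2, Cxcr4, Ccl12 and Tnf lower (3.71% of its tested genes) and Il6 higher (0.375%). It gave no p for Cxcl1, Cxcl5, Cxcl14, Cxcl16, Ccl5, Ccl8 and Ccl11, which it therefore did not test.

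**Figure D2:**
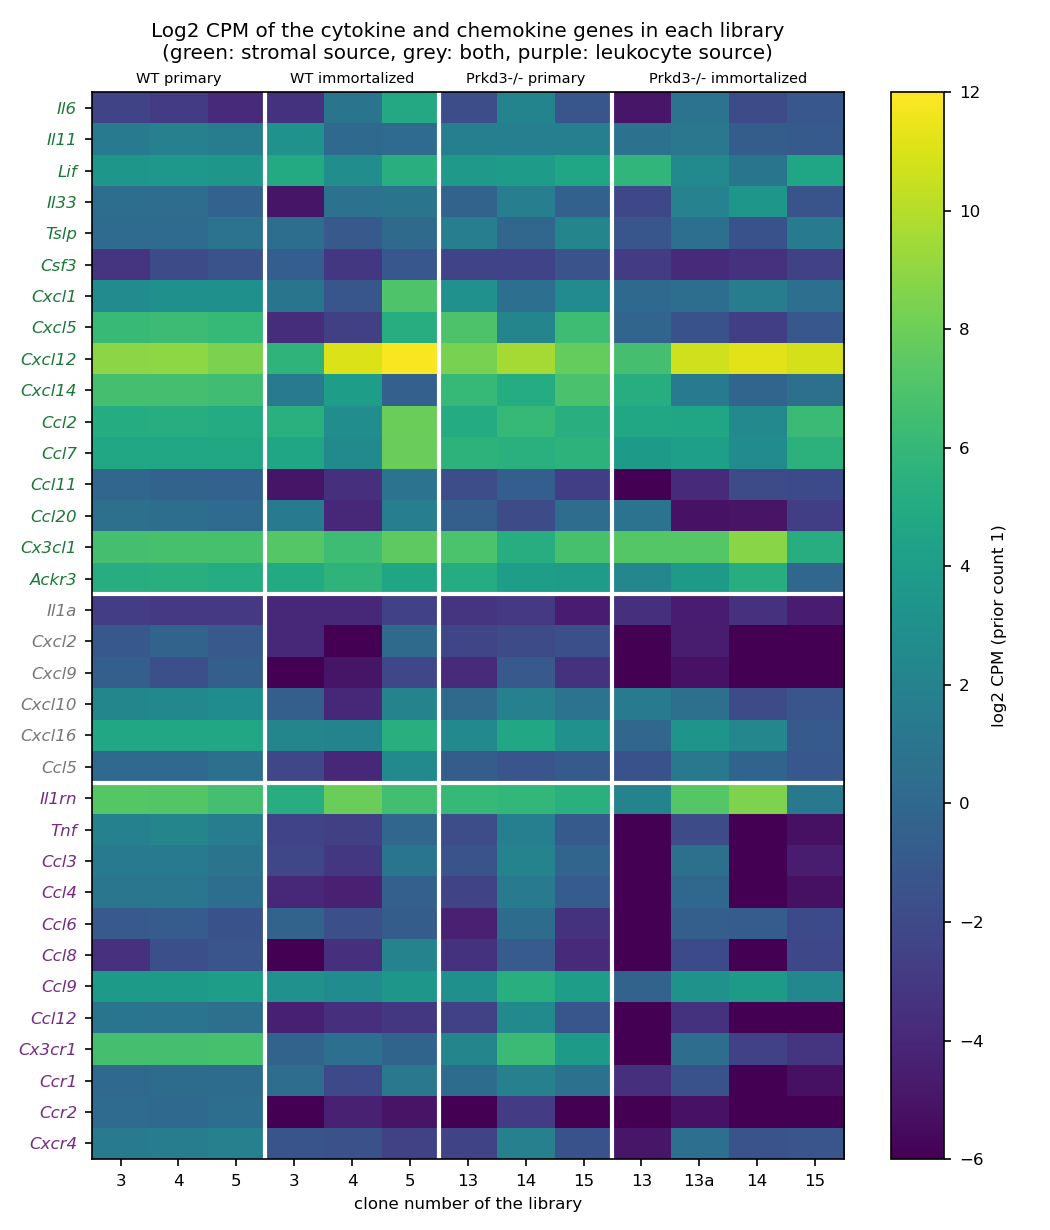
Log2 CPM (prior count 1) of the 34 genes, rows, in the 13 libraries, columns, grouped by genotype and state and by source class, with yellow high and dark purple low. The 3 WT primary columns look alike, WT line 5 is bright for Cxcl1, Ccl2 and Ccl7, and Cx3cr1, Ccl3 and Ccl4 are among the genes at 0 in Prkd3-/- line 13.

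Among the Prkd3-/- libraries, no gene of the module and no gene at all passed the same test over 20298 genes (0% called). At an unadjusted p under 0.05 there were 8 of the 31 tested genes, beside 6.56% of all tested genes, and the 8 were Tnf, Il11, Cxcl1, Cxcl2, Cxcl5, Ccl12, Cx3cr1 and Ccr1, all with a negative Log2FC. The median Log2FC of the 31 was -1.27, with 25 below 0, beside 0.068 for all tested genes, and was -0.79 without primary library 14. Every line lay below every primary library for 8 of 31 genes (5.62% of all tested genes) and above for 0 (3.85%). DESeq2 called Cxcl5, Cxcl2 and Cx3cr1 lower (0.473% of its tested genes) and 0 higher (0.0784%), and limma called 0. Il1a, Cxcl9 and Ccr2 did not pass the filter on low counts. Lines 13 and 13a may share an embryo, and with their counts summed edgeR called 0.

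The test of the difference between the Log2FC of the genotypes called 0 of 33 genes over 21197 genes (0% called, adjusted p under 0.05, edgeR). DESeq2 called 0 of the 30 genes of the module that it tested, beside 0.101% of all its tested genes. At an unadjusted p under 0.05 in edgeR there were 2, beside 3.97% of all tested genes, namely Il6 and the receptor Ccr1. For Il6 the difference in Log2FC, Prkd3-/- minus WT, was -7.77 (SE 2.51, adjusted p = 1.0 in edgeR and 0.0620 in DESeq2). For Ccr1 it was -4.32 (SE 1.52, adjusted p = 1.0 in edgeR and 0.301 in DESeq2). The difference for Il6 was -4.40 without WT line 5 and -9.12 without Prkd3-/- line 13a.

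**Figure D3:**
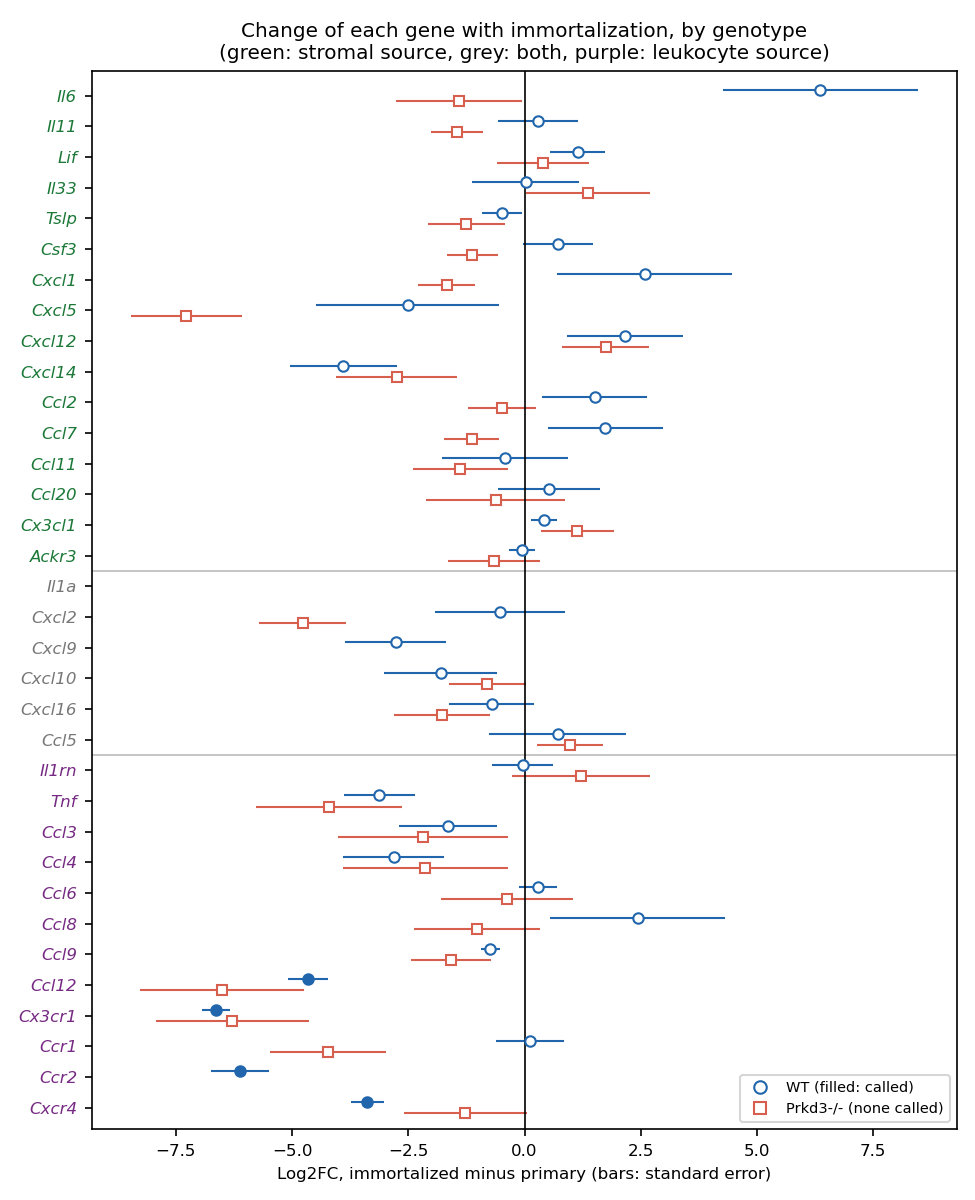
Log2FC of each tested gene, immortalized minus primary, with standard errors, for WT (circles) and Prkd3-/- (squares), where filled symbols passed the test. Only Ccl12, Cx3cr1, Ccr2 and Cxcr4 in WT are filled, and 25 of 31 squares lie left of 0.

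The cytokines moved line by line. Il6, the main inflammatory cytokine of the senescence programme, stood at 0.184, 0.131 and 0.0540 CPM in WT primary clones 3, 4 and 5 (12, 12 and 3 counts) and at 0.0819, 1.91 and 28.9 CPM in the lines of the same numbers. Line 5 was thus 157-fold above the highest primary library, line 4 was also above all of them, and line 3 lay within their range. The Log2FC was 6.36 (SE 2.09, adjusted p = 0.175 in edgeR and 0.00359 in DESeq2), with adjusted p-values of 0.00359 to 0.554 over the alternatives. In Prkd3-/- cells Il6 was highest in primary clone 14 at 4.32 CPM (0.277 in clone 13 and 0.424 in clone 15) and ranged from 0.0184 CPM in line 13 to 1.79 CPM in line 13a, so the groups overlapped.

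Of the relatives of Il6, Lif, which keeps mouse embryonic stem cells undifferentiated, stood at 11.4 to 12.2 CPM in WT primary cells and at 31.6, 7.02 and 38.8 CPM in lines 3, 4 and 5. Lines on both sides of the primary range gave a Log2FC of 1.14 (SE 0.59, adjusted p = 0.358 in edgeR). In Prkd3-/- cells Lif spanned 1.98 CPM in line 14 to 56.9 CPM in line 13, around primary values of 12.97 to 24.3 CPM. Il11, a stromal cytokine linked to fibrosis, was high in WT line 3 alone (9.19 CPM, beside 1.08 and 1.23 CPM in the other lines and 2.64 to 3.61 CPM in primary cells). All 4 Prkd3-/- lines, at 0.508 to 2.16 CPM, lay below the primary libraries, which spanned 3.35 to 3.42 CPM (Log2FC -1.46, SE 0.55, adjusted p = 0.711 in edgeR).

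Il1rn, the secreted antagonist of the interleukin-1 receptor, had the highest level per kilobase of the cytokines in WT primary cells (23.8 CPM per kilobase). It stood at 152, 145 and 97.4 CPM in WT primary cells and at 37.5, 248.9 and 95.6 CPM in lines 3, 4 and 5. In the Prkd3-/- lines it ranged from 2.46 CPM in line 15 and 4.18 in line 13 to 151 in line 13a and 364 in line 14, around 42.4 to 65.9 CPM in primary cells. No Log2FC was called, and neither direction was shared by the lines of a genotype. Il1rn was placed in the leukocyte class from general knowledge. Macrophage markers summed to 13.99 CPM in Prkd3-/- line 14 and to 63.1 CPM in WT line 4, where Il1rn was highest in its genotype. In the WT primary libraries they summed to 1602 to 1629 CPM. The source of Il1rn was not tested. Tnf, made mainly by macrophages, was lower in every line than in every primary library of its genotype: 3.13 to 4.58 CPM against 0.152 to 0.954 CPM in WT, and 0.277 to 3.41 CPM against 0 to 0.273 CPM in Prkd3-/-. Its WT Log2FC was -3.12 (SE 0.77, adjusted p = 0.0925 in edgeR and 0.000180 in DESeq2).

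The remaining cytokines were low. Il33, an alarmin kept in the nucleus and sensed by Il1rl1, spanned 0.792 to 1.43 CPM in WT primary cells and 0.0164 to 1.92 CPM in WT lines, and reached 11.8 CPM in Prkd3-/- line 14. Tslp, which acts on dendritic cells, stayed between 0.349 and 4.58 CPM in all libraries. Csf3, the growth factor of granulocytes, did not exceed 0.622 CPM, nor Il1a, which can start the secretory programme from the cell surface, 0.167 CPM. Il1a passed the filter on low counts in neither genotype.

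The neutrophil attractants Cxcl1, Cxcl2 and Cxcl5, neighbours on chromosome 5, shared a high value in WT line 5 beside low ones in lines 3 and 4. Cxcl1 stood at 6.29, 8.21 and 8.32 CPM in WT primary clones and at 1.98, 0.423 and 133 CPM in lines 3, 4 and 5. Cxcl2 stood at 0.461, 0.797 and 0.504 CPM and then at 0.0491, 0 and 1.15 CPM. Line 5 was above the primary range for both, and lines 3 and 4 were below it. Cxcl5 stood at 70.4, 80.3 and 67.5 CPM in WT primary cells and at 0.0655, 0.152 and 37.4 CPM in the lines, so every line was below, line 5 least. Its WT Log2FC was -2.51 (SE 1.97, adjusted p = 0.542 in edgeR) and was -9.37 without line 5, when it was called.

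The same ligands were low in all 4 Prkd3-/- lines. Cxcl5 stood at 127, 4.53 and 85.3 CPM in primary clones 13, 14 and 15 and at 0.920, 0.341, 0.143 and 0.454 CPM in lines 13, 13a, 14 and 15. The groups did not overlap, and the Log2FC was -7.27 (SE 1.19, adjusted p = 0.296 in edgeR and 7.18e-11 in DESeq2). Cxcl2 had 55 counts over the primary libraries and 2 over the lines, a ratio of 31.8 (95% exact conditional interval 8.40 to 269, counting error only). Cxcl1 ranged from 1.09 to 2.87 CPM in the lines and from 1.497 CPM in primary clone 14 to 8.57 CPM in clone 13.

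Cxcl12 was above the primary range in all lines but 1 of each genotype. In WT it stood at 469, 484 and 344 CPM in primary clones and at 52.9, 2120 and 3577 CPM in lines 3, 4 and 5. In Prkd3-/- it stood at 333, 773 and 217 CPM in primary clones and at 101, 1683, 2284 and 1856 CPM in lines 13, 13a, 14 and 15. The lines below the primary range were line 3 and line 13. The Log2FC was 2.16 (SE 1.24, adjusted p = 0.404) in WT and 1.75 (SE 0.93, adjusted p = 0.814) in Prkd3-/-, both in edgeR, and without WT line 3 it was 2.74 and called.

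Cxcl14 stood at 104, 103 and 90.6 CPM in WT primary clones and at 2.54, 16.7 and 0.697 CPM in lines 3, 4 and 5, so that all lines were below all primary cells. Its Log2FC was -3.90 (SE 1.15, adjusted p = 0.141 in edgeR). In Prkd3-/- cells line 13, at 37.6 CPM, overlapped the primary range of 35.7 to 116 CPM, and the other lines lay between 0.919 and 2.85 CPM. The interferon-induced ligands Cxcl9 and Cxcl10, which attract T cells through Cxcr3, were lower in every WT line than in every WT primary library, Cxcl10 at 0.0507 to 4.03 CPM against 4.81 to 6.63 CPM and Cxcl9 at 0 to 0.212 CPM against 0.316 to 0.684 CPM. Neither was called. Cxcl16, a membrane-bound ligand of Cxcr6, stood at 26.0 to 28.1 CPM in WT primary cells and at 4.54, 4.29 and 40.1 CPM in lines 3, 4 and 5.

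The monocyte attractants Ccl2 and Ccl7, neighbours on chromosome 11, were both highest in WT line 5. Ccl2 stood at 34.9, 37.8 and 34.03 CPM in WT primary clones and at 43.9, 6.97 and 249.2 CPM in lines 3, 4 and 5. Ccl7 stood at 26.5, 27.2 and 27.6 CPM and then at 25.2, 5.88 and 237 CPM. For both, line 5 was highest and line 4 lowest, and the Log2FC were 1.51 (SE 1.14, adjusted p = 0.526) and 1.74 (SE 1.24, adjusted p = 0.501) in edgeR, turning to -0.50 and -0.81 without line 5. In Prkd3-/- lines Ccl2 ranged from 5.67 CPM in line 14 to 75.5 in line 15, around 34.2 to 65.5 CPM in primary cells, and Ccl7 from 6.53 in line 14 to 48.2 in line 15, below primary values of 42.3 to 50.8 CPM in all but line 15.

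The others of that cluster were scarce. Ccl8 stood at 0.0769, 0.316 and 0.396 CPM in WT primary cells and at 0, 0.0676 and 4.14 CPM in lines 3, 4 and 5. Ccl11, the eosinophil attractant eotaxin, stood at 0.774 to 0.938 CPM and then at 0.0164, 0.0676 and 1.77 CPM, again highest in line 5. Ccl12, a monocyte attractant made by mouse macrophages, did not share this pattern. It fell from 2.01, 1.89 and 1.51 CPM in WT primary clones to 0.0328, 0.0676 and 0.106 CPM in the lines (Log2FC -4.66, SE 0.44, adjusted p = 0.00444 in edgeR, 9.56e-19 to 0.209 over the alternatives), without overlap. In Prkd3-/- cells Ccl12 stood at 0.162, 5.82 and 0.424 CPM in primary clones 13, 14 and 15, and at 0 in 3 of the 4 lines.

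**Figure D4:**
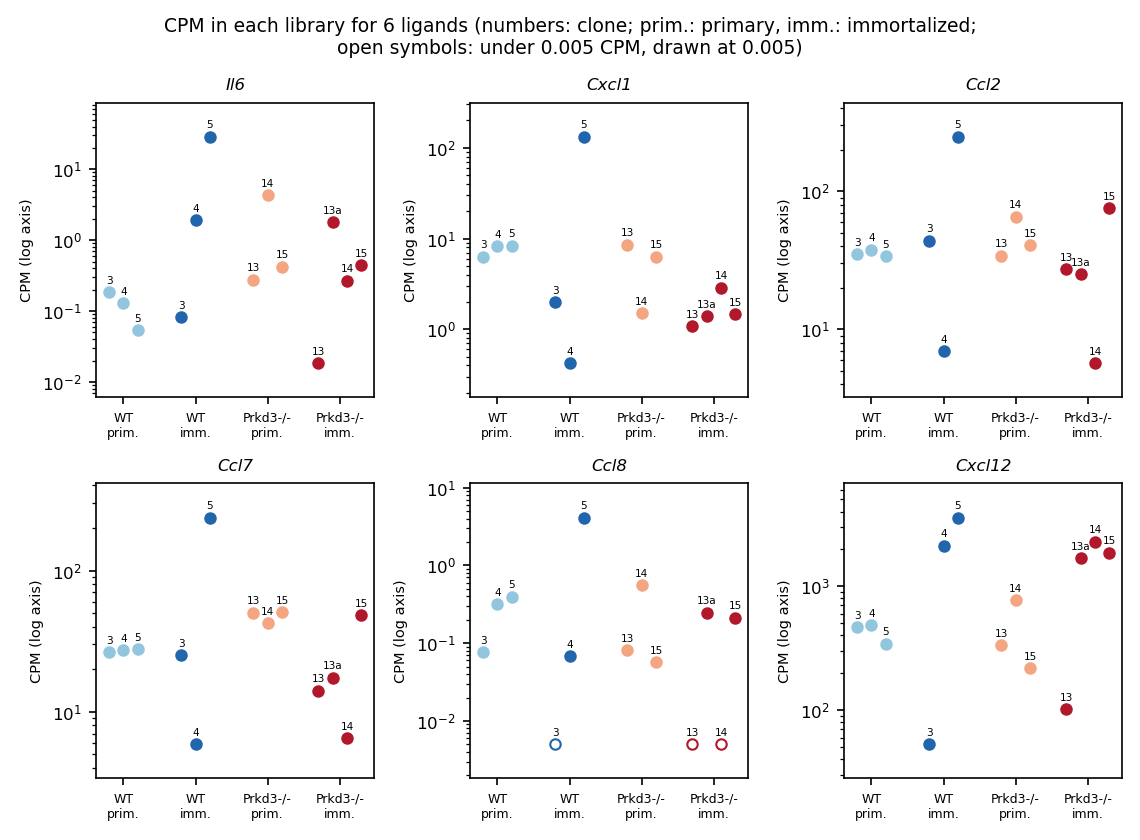
CPM on a log axis for Il6, Cxcl1, Ccl2, Ccl7, Ccl8 and Cxcl12, 1 point per library, labelled with its clone number, and open symbols for libraries under 0.005 CPM. WT line 5 is the highest of all 13 libraries in each panel, at 28.9 CPM for Il6 and 3577 CPM for Cxcl12.

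WT line 5 set the upper end for much of the module. In it, 17 of the 33 tested genes lay above all WT primary libraries (39.6% of all tested genes did) and 15 below (43.9%), and 11 of the 16 stromal genes were among those above. Of the 33, 6 (18.2%) lay over 5-fold above the highest primary library, beside 0.822% of all tested genes: Il6 (157-fold), Cxcl1 (15.97), Ccl8 (10.4), Ccl7 (8.59), Cxcl12 (7.39) and Ccl2 (6.60). WT line 3 had 8 of 33 above (42.5% of all) and 23 below (41.7%), with 0 over 5-fold above (0.423% of all). WT line 4 had 5 of 33 above (39.6%) and 27 below (43.3%), with Il6 alone over 5-fold above (0.247% of all). In Prkd3-/- line 13, 3 of 31 lay above the primary range (35.3% of all tested genes) and 26 below (42.5%). In line 13a the counts were 5 (28.2%) and 16 (29.5%), in line 14 they were 6 (35.9%) and 20 (35.9%), and in line 15 they were 3 (34.2%) and 20 (34.9%). Il1rn in line 14 was the only gene of the module over 5-fold above in these lines (1.16% of all tested genes in that line). Lines 13, 13a and 15 had 0 of 31 over 5-fold above, beside 0.34%, 0.355% and 0.34% of all tested genes.

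The regulators usually named upstream of these genes were listed as 16 NF-kB and C/EBP genes. In WT edgeR called 0 of the 16, beside 1.82% of all tested genes. In Prkd3-/- it called 0, beside 0% of all tested genes. In WT 0 of the 16 had a Log2FC below 0 (45.8% of all tested genes did), with a median of 0.39 (0.036 over all). In Prkd3-/- 4 were below 0 (43.1% of all), with a median of 0.12 (0.068 over all). The 16 genes summed to 1285 CPM in WT line 5 and 531 to 722 CPM in the other libraries. Among the 6 most abundant, Cebpd was 313 CPM in line 5 and 10.1 to 49.7 CPM elsewhere, and Cebpb 169 CPM and 47.6 to 105 CPM, whereas Rela (85.4 CPM in line 5, 72.4 to 102 elsewhere) lay inside the range of the other libraries. Named after their values were seen, Nfkbiz stood at 170 CPM in line 5 and 3.17 to 29.3 CPM elsewhere, and Tnfaip3 at 33.6 CPM in line 5 and 30.0 CPM in line 3. The part of these regulators in the ligand levels was not tested. The 14 macrophage markers summed to 160 CPM in line 5, beside 107 CPM in line 3 and 63.1 CPM in line 4. Among them Adgre1, which was not called and was named after its values were seen, was 54.7 CPM in line 5. It stood at 2.15 to 2.20 CPM in the other WT lines. Csf1r (13.9 CPM) and Cd68 (3.42 CPM) in line 5 stood near their values in lines 3 and 4.

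Of the ligands placed in the leukocyte class, Ccl3 and Ccl4 attract monocytes and T cells. They stood at 1.89 to 2.81 and 1.42 to 2.11 CPM in WT primary cells. In the WT lines they stood at 0.101 to 1.97 and 0.0338 to 0.697 CPM. Both were highest in line 5, and only Ccl4 separated lines from primary cells. Ccl9, a ligand of Ccr1, was lower in every line (6.61 to 11.2 CPM) than in every primary library (13.96 to 15.9 CPM), a small difference (Log2FC -0.73, SE 0.21, adjusted p = 0.133 in edgeR). Ccl6, another ligand of Ccr1, stood at 0.342 to 0.578 and 0.321 to 0.803 CPM, with overlap. In Prkd3-/- primary cells Ccl9 stood at 8.27 to 40.2 CPM and Ccl6 at 0.0346 to 1.29 CPM. In lines 13, 13a, 14 and 15 Ccl9 stood at 0.828, 9.25, 13.9 and 5.17 CPM. Ccl6 stood there at 0, 0.655, 0.586 and 0.241 CPM. Macrophage markers summed to 17.4, 381, 13.99 and 21.6 CPM in these lines, and the source of either ligand was not tested. Outside the leukocyte class, Ccl5, placed in the class made by both, attracts T cells and monocytes. It stood at 1.08 to 1.53 CPM in WT primary cells and at 0.213, 0.0507 and 5.70 CPM in lines 3, 4 and 5. Ccl20, a stromal gene and the ligand of Ccr6, stood at 1.19 to 1.58 CPM and then at 2.72, 0.0507 and 3.23 CPM. In Prkd3-/- Ccl5 stood at 0.400 to 0.612 CPM in primary cells and at 0.350 to 2.31 CPM in the lines. Ccl20 stood there at 0.260 to 1.36 CPM and at 0.0137 to 1.77 CPM.

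The leukocyte receptors Cx3cr1, Ccr2 and Cxcr4 fell in WT. Cx3cr1, the fractalkine receptor of monocytes and microglia, stood at 103, 102 and 106 CPM in WT primary clones and at 0.803, 1.49 and 0.848 CPM in lines 3, 4 and 5. All lines were far below all primary cells, with a Log2FC of -6.63 (SE 0.30, adjusted p = 0.000471 in edgeR, 2.08e-122 to 0.0753 over the alternatives). Ccr2, the receptor through which Ccl2 calls monocytes, had 261 counts over the WT primary libraries and 3 over the lines, a ratio of 76.3 (95% exact conditional interval 25.8 to 373, counting error only), and an adjusted p of 0.00564 in edgeR (1.1e-10 to 0.0670 over the alternatives). With so few counts its fitted Log2FC depends on the prior count. Cxcr4, the receptor of Cxcl12, stood at 2.75, 3.03 and 3.601 CPM and then at 0.393, 0.338 and 0.167 CPM, with a Log2FC of -3.38 (SE 0.36, adjusted p = 0.00658 in edgeR, 1.21e-19 to 0.342 over the alternatives).

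Macrophage markers moved with these receptors. All 14 had a negative WT Log2FC (median -4.15), 7 of them were called lower (C1qa, Cd68, C1qb, Csf1r, Lyz2 and Tyrobp by the smallest p), and none was at 0 in a WT library. With the clone number as a block none of the 7 was called, beside 0% of all tested genes. The endothelial, epithelial and skeletal muscle markers, given above, were also lower in every WT line, and of these the endothelial gene Tek was called (Log2FC -4.78), though not with the block. The part of all these markers in the fall of Cx3cr1, Ccr2, Cxcr4 and Ccl12 was not tested.

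**Figure D5:**
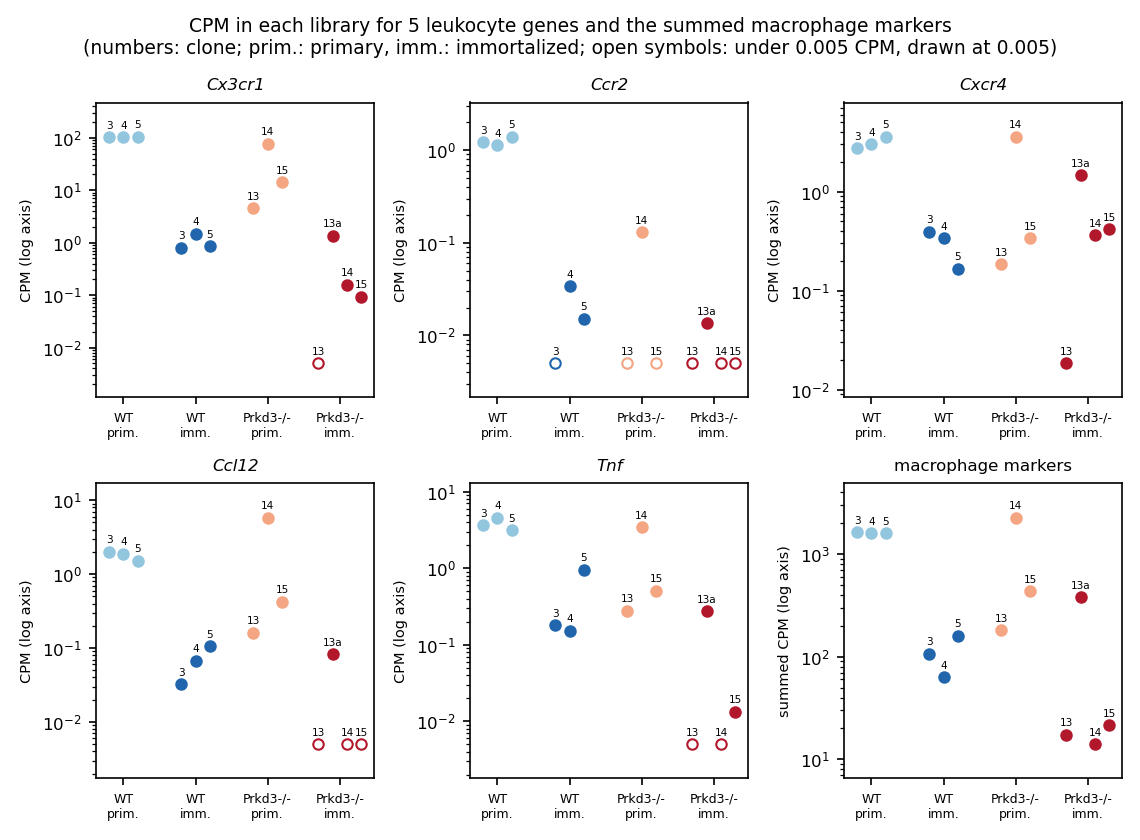
CPM on a log axis for Cx3cr1, Ccr2, Cxcr4, Ccl12 and Tnf, and summed CPM of 14 macrophage markers, 1 point per library labelled with its clone number, with open symbols for libraries under 0.005 CPM. WT primary libraries are high in each panel, and Prkd3-/- primary clone 14, at 2274 CPM of summed markers, is the highest of its group in every panel.

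The other receptors did not share this change in WT. Ccr1, a receptor of neutrophils and monocytes, stood at 1.12 to 1.27 CPM in WT primary cells and at 1.36, 0.237 and 2.33 CPM in lines 3, 4 and 5, on both sides of the primary range. In Prkd3-/- it stood at 1.25 to 3.53 CPM in primary cells and at 0 to 0.355 CPM in the lines, without overlap (Log2FC -4.22, SE 1.25, adjusted p = 0.612 in edgeR). Ackr3, the stromal scavenger of Cxcl12, stood at 35.6 to 41.4 CPM in WT primary cells and at 25.0 to 52.5 CPM in WT lines, and in Prkd3-/- lines spanned 0.962 to 36.8 CPM. Cx3cl1, the membrane-bound fractalkine, was among the steadiest, at 105 to 108 CPM in WT primary cells and 86.1 to 187 CPM in the lines (Log2FC 0.42, SE 0.28, adjusted p = 0.469 in edgeR), and it reached 438 CPM in Prkd3-/- line 14.

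The Prkd3-/- primary cultures differed from each other. In all, 17 of the 31 tested genes of the module were highest in primary clone 14 (41.9% of all tested genes were) and 8 lowest (39.2%). Of the 12 leukocyte genes 11 were highest there, where Cx3cr1 stood at 77.7 CPM (4.57 in clone 13 and 14.3 in clone 15), Cxcr4 at 3.598 CPM (0.185 and 0.339) and Ccl12 at 5.82 CPM. Of the 16 stromal genes 5 were highest and 7 lowest in that clone, Cxcl5 and Cxcl1 among the latter. The summed macrophage markers of clone 14, given above, were likewise the highest of the 3. Without clone 14 the Log2FC of Cx3cr1 in Prkd3-/- moved from -6.29 to -4.52, and that of Cxcr4 from -1.27 to 1.15.

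Lines 13 and 13a, which carry the same clone number, differed by at least 5-fold in 15 of the 34 genes, with levels under 3 counts set to that floor. All 15 were among the 31 tested genes, and 11.5% of all tested genes lay as far apart. Line 13a was higher for 12 of the 15 (10.1% of all tested genes were at least 5-fold higher in line 13a), and line 13 for Lif, Cxcl14 and Ccl20. Of the 12, 7 had been placed in the leukocyte class, Il1rn among them. Il1rn stood at 4.18 CPM in line 13 and 151 CPM in line 13a, Cxcl12 at 101 and 1683 CPM, Cxcr4 at 0.0184 and 1.47 CPM, and Lif at 56.9 and 5.90 CPM. Macrophage markers summed to 17.4 CPM in line 13 and 381 CPM in line 13a, and their part in this difference was not tested.

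The rest of the pathway was mostly not called. Of 18 other chemokines 7 were tested in WT and 0 called by edgeR, with 3 at an unadjusted p under 0.05, while DESeq2 called 3 lower. The pair with the highest mean CPM over all libraries were Ppbp (7.77 to 8.45 CPM in WT primary cells, 0.135 to 31.1 CPM in the lines) and Cxcl15 (12.6 to 15.9 CPM and 0.0491 to 0.773 CPM, Log2FC -5.23, SE 0.88, adjusted p = 0.0292 in edgeR). The DESeq2 calls, named after their values were seen, were Cxcl15, Cxcl3 and Pf4. Of 13 cytokine receptors, all tested, Il7r fell (Log2FC -4.20), and Il6st, the shared signal chain for Il6, Il11 and Lif, stood at 768 to 1300 CPM in the WT lines and 859 to 986 CPM in WT primary cells. Of 12 other cytokines 8 were tested and Il15 fell (Log2FC -2.79), and of 18 other secreted senescence factors, all tested, the angiogenic factor Vegfa rose from 33.4 to 40.5 CPM to between 82.2 and 97.9 CPM (Log2FC 1.22, SE 0.12, adjusted p = 0.00472 in edgeR). With the clone number as a block, a fit that called 0% of all tested genes, Il7r, Il15 and Vegfa were not called (adjusted p = 0.0359, 0.0615 and 0.0443 in edgeR). In Prkd3-/- none of these 4 lists had a gene called by edgeR, which called 0% of all tested genes there. DESeq2 called 2 other chemokines and 1 secreted senescence factor lower in Prkd3-/- (0.473% of its tested genes) and 0 higher (0.0784%). In WT it also called 1 cytokine receptor, 3 other cytokines and 2 secreted senescence factors lower (3.71% of its tested genes). It called 1 secreted senescence factor higher in WT (0.375%).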

How the data were processed

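Poly-A RNA of 13 MEF cultures was read in pairs of 100 bases. The authors deposited raw read pair counts per gene in a table for each genotype. Per the file header, WT pairs were counted with featureCounts (Subread 2.0.6) on Ensembl genes of GRCm38. Per the labels, STAR 2.7.10a and Samtools 1.18 were used, and steps behind the Prkd3-/- table are otherwise not given in the sources used here.

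Symbols matched 55141 of 55487 gene IDs and every member. The members, source classes and 15 lists were chosen with earlier results of these data known. All members are named, and of other lists the called genes or else the most abundant (6 per list at most). The states were compared within each genotype with edgeR 4.0.16 (TMM, filter on low counts, robust quasi-likelihood test), and adjusted p-values are Benjamini-Hochberg values over all tested genes. The interaction was fitted over 13 libraries. Alternatives were DESeq2 1.42.0, limma 3.58.1, library size alone, DESeq2 size factors, no filter, at least 10 counts everywhere, a joint fit, a block per clone, lines 13 and 13a summed, other thresholds and each library left out (R 4.3.3). DESeq2 gave no p for 7 of the 34 genes in WT, which stay out of its counts. The scripts were tested on simulated counts. The list of other chemokine receptors is not reported here.

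Clone numbers in the labels pair lines with primary cultures. Deviations from group means correlated at -0.039 to 0.019 between WT libraries of the same number and at -0.28 to 0.14 in Prkd3-/-. Between primary and immortalized libraries of different numbers they correlated at -0.032 to 0.062 in WT and at -0.30 to 0.34 in Prkd3-/-. P-values measure only the spread between these cultures. Libraries were counted as replicates because the labels give each a clone number. No pair held the same counts (chi-square per gene 5.13 to 11.7 between WT primary libraries and 43.2 to 371 between Prkd3-/- primary libraries), which does not show how far cultures were separate.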

Additional observations from a re-analysis of the deposited data

Results flagged for a closer look

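In the 4 immortalized Prkd3-/- lines, log2 CPM of each gene was examined for a library far from the others by Dixon's ratio. By chance the ratio marks about 1 in 20 groups where values are not tied at 0. Cxcl2, Cxcl9 and Ccr2, with no more than 3 counts in any of these lines, were left out. Cxcl12 was marked for line 13, at 101.2 CPM beside 1683 to 2284 CPM (ratio 0.902). Ccl4 was marked for line 13a, at 0.983 CPM beside 0 to 0.0134 CPM (ratio 0.846). Ccl12 was also marked for line 13a, at 0.0819 CPM (6 counts) with the others at 0. Where the other lines are tied at 0 the ratio is fixed, so Ccl12 says nothing about how far line 13a stands apart, and Ccl4, with 2 lines at 0, carries the same limit in part. Macrophage markers summed to 381 CPM in line 13a and to 13.99 to 21.6 CPM in the other lines, and their part was not tested.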

How the results depend on the processing

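In WT, 4 genes of the module were called by edgeR (1.82% of all tested genes). At least 10 counts in every library gave 2 (0.920%), and limma gave 1 (0.998%). A joint fit of all 13 libraries gave 0 (0%), as did the replicate block (0%). Where 0% of all tested genes were called, the 0 says nothing about the module in particular. Leaving a library out gave 1 to 9 (0.237% to 3.66%). In Prkd3-/- the 0 called (0%) became 3 with DESeq2 (0.552%). The other alternatives kept the counts of both genotypes and of the interaction within 1.5 times, and the block changed no call in Prkd3-/- or the interaction. Library size in place of TMM moved the WT median of all tested genes from 0.036 to -0.098, and Il33 to -0.085. Signs of Log2FC that were not called turned as follows, and the cause was not tested. With limma and with the block, respectively, WT values were -0.43 and -0.48 for Il11, -1.46 and -0.59 for Il33, -0.54 and -1.08 for Cxcl1, -1.44 and -1.52 for Ccl5, -0.66 and -0.094 for Ccl8, -0.73 and -0.21 for Ccl20, and -0.37 and -0.30 for Ccr1. In Prkd3-/- they were -0.9985 and -0.085 for Il1rn and -0.52 and -0.32 for Lif, and Ccl6 was 1.15 with the block. With a library left out, WT Log2FC ranged over -0.97 to 0.40 for Il1rn, -1.40 to 0.74 for Il11, -0.50 to 0.61 for Il33, -2.67 to 3.17 for Cxcl1, -4.48 to 0.045 for Cxcl2, -0.50 to 2.06 for Ccl2, -3.20 to 1.29 for Ccl5, -0.012 to 0.57 for Ccl6, -0.81 to 2.29 for Ccl7, -2.91 to 3.02 for Ccl8, -4.29 to 0.15 for Ccl11, -0.022 to 1.10 for Ccl20, -0.62 to 0.61 for Ccr1 and -0.42 to 0.15 for Ackr3. In Prkd3-/- they ranged over -2.77 to 0.87 for Il6, -0.083 to 1.62 for Il1rn, -0.64 to 0.78 for Lif, -0.039 to 2.39 for Il33, -0.91 to 2.71 for Ccl6, -1.44 to 0.74 for Ccl8, -3.59 to 0.10 for Ccl20 and -2.37 to 1.15 for Cxcr4. Line 5 set the sign for Cxcl1, Ccl2, Ccl5, Ccl7, Ccl8, Ccl20 and Ccr1 in WT. Depth limits Il1a, Csf3, Ccr2 and Cxcl9, with few counts in many libraries.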
